A study of Homo sapiens with 6 samples.

Results

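The 9 genes described here are the 7 beta-1,4-galactosyltransferases B4GALT1 to B4GALT7 together with UGCG and ST3GAL5, the enzymes that stand before and after lactosylceramide in glycolipid synthesis. They were taken by name from a table of 48162 genes, where each name occurs once, and all 9 were among the 16233 genes with enough counts to be tested. The family was selected on the mimic-over-control difference of B4GALT6, known from earlier results of these libraries, so the mimic values below are a description and support nothing further. HEK293, an established human embryonic kidney line, received Flag-tagged Ago2 in every library. Together with it, 3 libraries received a microRNA-219 mimic and 3 a negative control mimic. Flag-tagged complexes were collected on anti-Flag agarose, and the RNA that came with them was sequenced. Each group had 1 library dated 22 August, 1 dated 5 September and 1 dated 18 September. The labels do not say whether dates were separate cultures, so the spread between libraries may be technical. Input RNA was not used here, so a level mixes the amount of a transcript in the cells with the part of it held by Ago2, and these cannot be told apart.

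Glycosphingolipids are built on ceramide in the Golgi. UGCG adds glucose to ceramide, B4GALT5 and B4GALT6 add galactose to make lactosylceramide, and ST3GAL5 adds sialic acid to make the ganglioside GM3, from which more complex gangliosides follow. B4GALT1 to B4GALT4 transfer galactose to N-acetylglucosamine on glycoproteins and glycolipids, and B4GALT7 adds the first galactose of the linker that joins glycosaminoglycan chains to proteoglycan core proteins. A microRNA guides Ago2 to transcripts mainly by pairing of its seed, so transcripts it targets can be gathered with Ago2 as well as destabilised.

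The mature strands of the microRNA-219a genes are shown because the labels do not state which strand the mimic carried. Bases 2 to 8, the seed, are in capitals, and the sequences are RefSeq's on GRCh38.p14.
hsa-miR-219a-5p: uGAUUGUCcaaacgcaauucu
hsa-miR-219a-2-3p: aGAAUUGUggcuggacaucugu
hsa-miR-219a-1-3p: aGAGUUGAgucuggacgucccg
The 5p strand is the same from both hairpin genes, at chr9:128392676-128392696 on the minus strand (MIR219A2) and at chr6:33207855-33207875 on the plus strand (MIR219A1). The 3p strands lie at chr9:128392632-128392653 and chr6:33207896-33207917, and each of the 3 strands has a seed of its own. Target sites in the 9 transcripts were not analysed here.

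Levels per length ranged from B4GALT2 and B4GALT1 at the top to B4GALT4 at the bottom. Values are RPKM, the read count scaled by the length of the gene model and by the TMM-normalised library size, as mean ± SD over all 6 libraries. B4GALT2 was the most abundant at 30.9 ± 4.14 RPKM and stood above B4GALT1 (17.9 ± 2.20 RPKM) in 6 of 6 libraries with no overlap. B4GALT1, B4GALT5 (16.1 ± 1.84 RPKM), B4GALT3 (13.5 ± 1.77 RPKM) and UGCG (11.7 ± 1.29 RPKM) followed, each neighbouring pair with overlapping ranges and in the same order in 5 of 6 libraries. UGCG was above B4GALT6 (6.87 ± 1.47 RPKM) in 6 of 6 libraries. The means of B4GALT6 and B4GALT7 (6.48 ± 0.485 RPKM) over 6 libraries were within their spread, but their order differed between groups. Under the control, B4GALT6 (5.57 ± 0.228 RPKM) lay below B4GALT7 (6.64 ± 0.200 RPKM) in 3 of 3 libraries. Under the mimic it lay above in 3 of 3, at 8.17 ± 0.530 RPKM against 6.32 ± 0.685 RPKM (SD, n = 3 each). ST3GAL5 (4.22 ± 0.721 RPKM) and B4GALT4 (3.04 ± 0.445 RPKM) were the scarcest. Of the pair that makes lactosylceramide, B4GALT5 was thus the more abundant in these precipitates.

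**Figure D1:**
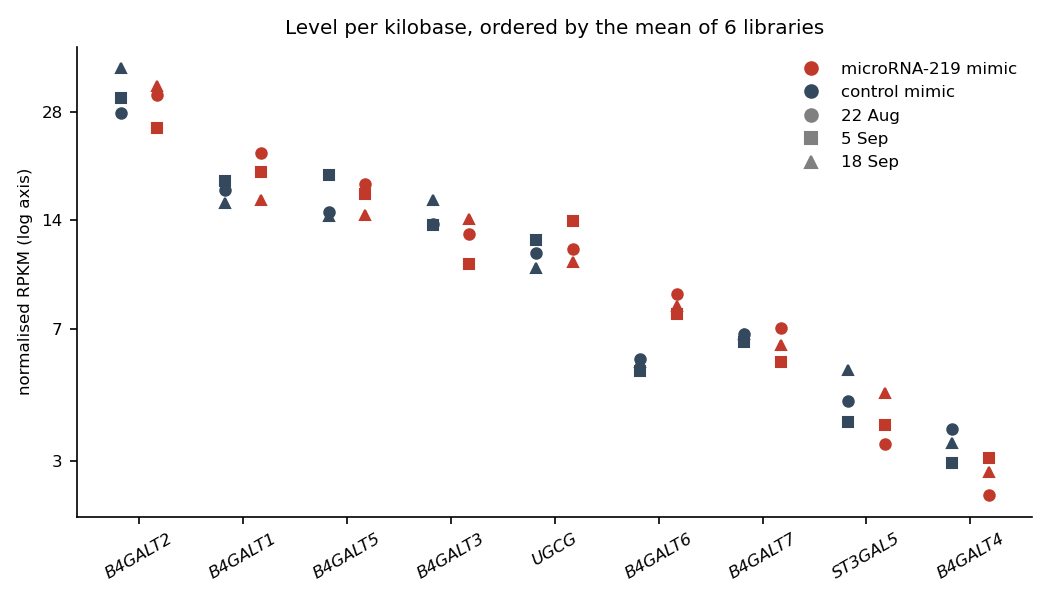
Normalised RPKM of the 9 genes (log axis) in each library, ordered by the mean of 6 libraries, with colour for the mimic and symbol for the date. B4GALT2 leads at a mean of 30.9 RPKM and B4GALT4 is last at 3.04 RPKM, and B4GALT6 lies below B4GALT7 in the 3 control libraries and above it in the 3 mimic libraries.

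B4GALT6 was the 1 gene of the 9 whose mimic and control libraries did not overlap. Among all tested genes, the groups did not overlap for 4.22% with the mimic higher and for 3.84% with it lower. B4GALT6 (ENSG00000118276, chr18:29202210-29265799 of hg19, minus strand) had 38.6, 34.0 and 35.8 normalised CPM (counts scaled to a common library size) under the mimic on 22 August, 5 September and 18 September. With the control it had 25.5, 23.5 and 25.0 CPM in the same order. In CPM, all 3 mimic libraries lay above all 3 control libraries. The raw reads, not scaled for library size, were 774 to 1119 against 526 to 796, and these ranges overlap. The means were 36.1 ± 2.35 CPM under the mimic and 24.7 ± 1.01 CPM under the control (SD, n = 3 each). The fold was 1.47 (95% CI 1.20 to 1.79), or 0.55 on the log2 scale (SE 0.13). The log2 ratio was 0.60, 0.53 and 0.52 on the 3 dates. This log2 fold change ranked 465 from the top of the 16233 tested genes. B4GALT6 missed the adjusted threshold across the table (edgeR adjusted p = 0.999, DESeq2 adjusted p = 0.355).

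B4GALT5, the other lactosylceramide synthase (ENSG00000158470, chr20:48249482-48330415), had near equal means. Its levels were 83.6, 78.2 and 68.3 CPM under the mimic and 69.6, 88.3 and 67.9 CPM under the control in date order. The 2 groups overlapped, and the lowest value of each came from 18 September. The log2 fold change was 0.03 (SE 0.15, 95% CI −0.30 to 0.35), with ratios of 0.26, −0.18 and 0.01, and it turned to −0.039 without the mimic library of 22 August, −0.028 without the control library of that date and −0.043 without the control library of 18 September.

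UGCG, which makes the glucosylceramide that both synthases use (ENSG00000148154, chr9:114659046-114697649), had 46.6, 55.9 and 43.0 CPM under the mimic and 45.6, 49.6 and 41.4 CPM under the control. The groups overlapped, and 5 September was highest in each. Its log2 fold change was 0.09 (SE 0.15, 95% CI −0.22 to 0.41), and −0.022 without the mimic library of 5 September.

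ST3GAL5, the GM3 synthase (ENSG00000115525, chr2:86066267-86116137), had 11.6, 13.1 and 16.1 CPM under the mimic and 15.3, 13.4 and 18.7 CPM under the control. The groups overlapped, although the mimic library was the lower on each date. The log2 fold change was −0.21 (SE 0.18, 95% CI −0.60 to 0.18), with ratios of −0.39, −0.03 and −0.21. None of the 95% intervals of UGCG, B4GALT5 or ST3GAL5 reached a 2-fold change, while smaller changes were left within them.

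The enzymes of glycoprotein and proteoglycan synthesis all overlapped between groups. B4GALT1 (ENSG00000086062, chr9:33104080-33167354), also the subunit that makes lactose with alpha-lactalbumin in the breast, had 90.5, 80.1 and 67.2 CPM under the mimic and 71.4, 75.8 and 65.7 CPM under the control. The mimic library was the higher on each date, by log2 ratios of 0.34, 0.08 and 0.03, and the fit gave 0.16 (SE 0.15). B4GALT2 (ENSG00000117411, chr1:44444615-44456840) had 82.5, 66.5 and 87.3 CPM under the mimic and 73.2, 81.0 and 97.7 CPM under the control. Its log2 fold change was −0.09 (SE 0.16), and 0.016 and 0.030 without the mimic library of 5 September and the control library of 18 September. B4GALT2 thus had no settled direction.

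B4GALT3 (ENSG00000158850, chr1:161141100-161147287) had 40.8, 33.7 and 45.0 CPM under the mimic and 43.6, 43.4 and 50.8 CPM under the control. The mimic library was the lower on each date (log2 fold change −0.21, SE 0.15, 95% CI −0.53 to 0.12). B4GALT4 (ENSG00000121578, chr3:118930579-118959950) had 13.9, 17.7 and 16.2 CPM under the mimic and 21.3, 17.1 and 19.5 CPM under the control. Its ratio varied most between dates, at −0.61, 0.05 and −0.27, around a fitted log2 value of −0.28 (SE 0.16, 95% CI −0.62 to 0.06). B4GALT7 (ENSG00000027847, chr5:177027101-177037348) had 18.6, 14.9 and 16.8 CPM under the mimic and 17.9, 17.0 and 17.9 CPM under the control. Its means were 16.8 ± 1.82 and 17.6 ± 0.532 CPM (log2 fold change −0.07, SE 0.15), and the value was 0.0054 without the mimic library of 5 September.

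**Figure D2:**
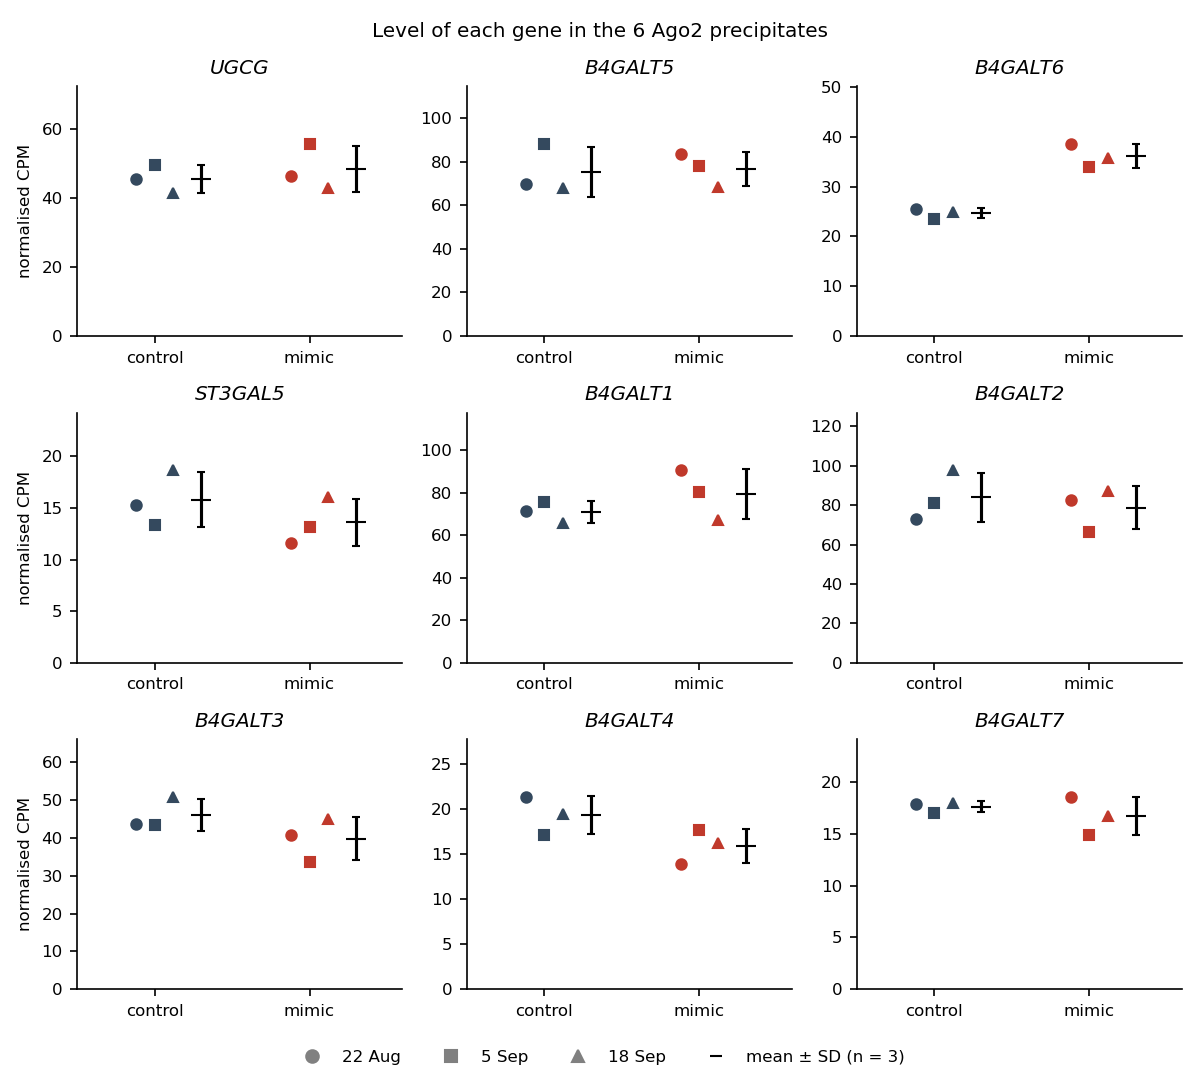
Normalised CPM of each gene (axes from 0) in the 3 control and 3 mimic libraries, with a symbol per date and the mean ± SD beside them. For B4GALT6 the mimic libraries (34.0 to 38.6 CPM) lie above the control libraries (23.5 to 25.5 CPM), and in the other 8 panels the groups overlap.

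Over the 9 genes, 0 were called at an adjusted p under 0.05 by edgeR, beside 0% of all tested genes in either direction, and 1 (B4GALT6, higher) had an unadjusted p under 0.05, beside 1.74% of all genes higher and 1.26% lower at that level. DESeq2 also called 0 of the 9, beside 0.0123% of all genes higher and 0.0185% lower, and again 0 with the date as a block, beside 0.0338% higher and 0.0592% lower. limma-voom called 0 of the 9. Among all genes edgeR called 0 with 488 at an unadjusted p under 0.05, limma-voom called 0, and DESeq2 called 5. Groups that did not overlap with the mimic higher were found for 1 of 9 genes and for 4.22% of all tested genes. The ratio was above 0 on all 3 dates for 3 of 9 (B4GALT6, B4GALT1 and UGCG) beside 15.6% of all genes, and below 0 on all 3 dates for 2 of 9 (ST3GAL5 and B4GALT3) beside 14.4%. The median log2 fold change was −0.07 over the 9 genes and 0.00 over all tested genes. Since the mimic contrast was known when the family was chosen, nothing is read from these shares.

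**Figure D3:**
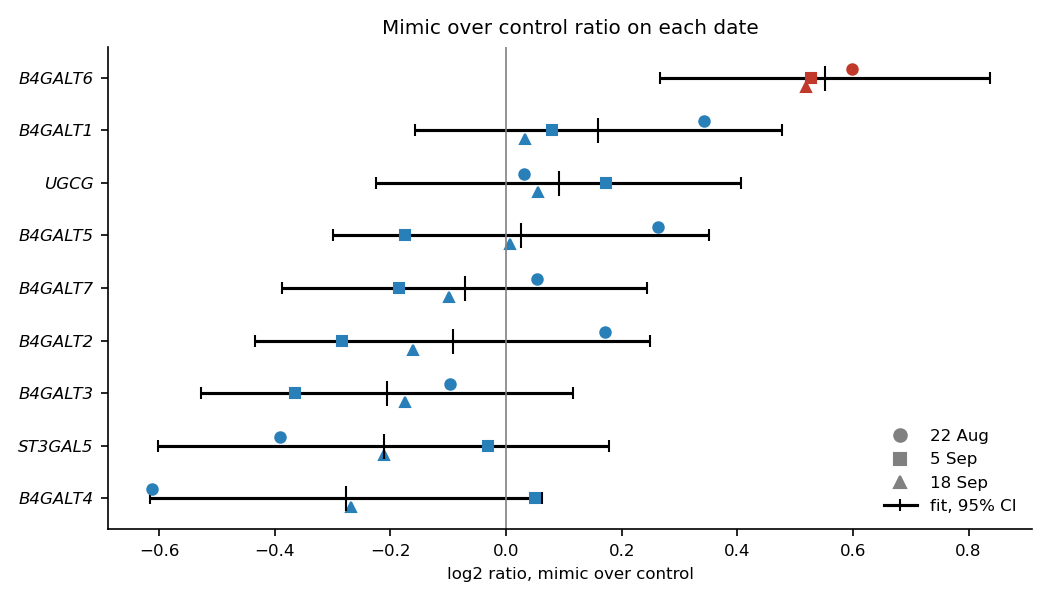
Log2 ratio of mimic over control on each date (symbols), with the fitted log2 fold change and its 95% CI (black bars), for the 9 genes. B4GALT6 lies at 0.60, 0.53 and 0.52, and the intervals of the other 8 genes span 0.

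Set against its paralogs, B4GALT6 had the higher mimic-over-control ratio in each pairing. Per library, the log2 CPM of B4GALT6 minus the mean of its 6 paralogs was higher with the mimic by 0.58, 0.67 and 0.63 on the 3 dates (mean 0.63 ± 0.05, SD over 3 dates). Against single paralogs the mean difference ran from 0.40 ± 0.12 for B4GALT1 to 0.83 ± 0.37 for B4GALT4, and it was above 0 on 3 of 3 dates for each of the 6. Against B4GALT5, the paralog with the same reaction, it was 0.34, 0.70 and 0.51. This comparison is the one by which the family was framed, so no test was made of it.

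The share of B4GALT6 within the family shows the same values per length. Of the summed RPKM of B4GALT5 and B4GALT6, B4GALT6 made up 33.0, 31.7 and 35.9% under the mimic, by date, compared to 28.1, 22.1 and 28.2% under the control. The groups did not overlap, with means of 33.5 ± 2.15% and 26.1 ± 3.45% (n = 3 each). Of the summed RPKM of all 7 B4GALT genes, B4GALT6 made up 8.59, 8.74 and 8.52% under the mimic, compared to 6.43, 5.55 and 5.70% under the control. The summed level of the 2 lactosylceramide synthases was 26.4, 24.2 and 22.6 RPKM under the mimic and 20.5, 24.0 and 20.0 RPKM under the control. On 5 September the 2 sums were close, the higher B4GALT6 of the mimic library standing beside a lower B4GALT5.

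**Figure D4:**
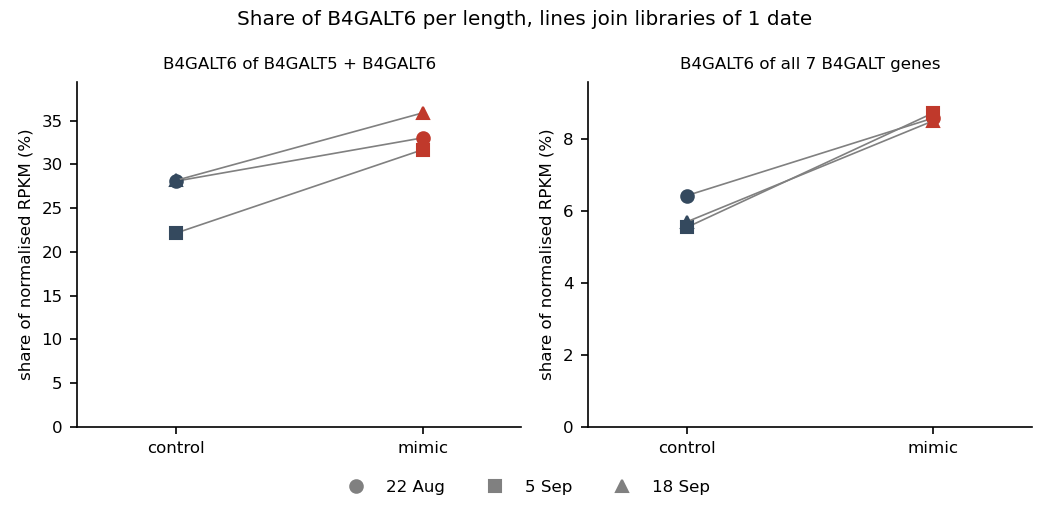
Share of B4GALT6 in the summed normalised RPKM of B4GALT5 and B4GALT6 (left) and of all 7 B4GALT genes (right), in percent from 0, with lines joining the control and mimic libraries of 1 date. All lines slope upward to the mimic, from 22.1 to 28.2% up to 31.7 to 35.9% on the left.

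Some of these genes share their locus with another gene, and whether reads were counted by strand is not given in the sources used here. RP11-549B18.1, an antisense gene on the plus strand, overlaps the 5′ end of B4GALT6 by 182 bases. It had 4.80, 3.84 and 5.09 CPM under the mimic and 5.32, 4.11 and 5.51 CPM under the control. The mimic library was the lower on each date. Reads of RP11-549B18.1 were at most 22.1% of those of B4GALT6 in any library. Whether this overlap bears on the count of B4GALT6 was not tested. The whole span of B4GALT3 lies within PPOX on the opposite strand, which makes the count of B4GALT3 uncertain. Reads of PPOX were at most 33.6% of those of B4GALT3 in any library. The antisense genes over B4GALT1 and B4GALT4 had at most 5 reads and 1 read in any library.

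The tested genes whose log2 CPM over the 6 libraries was most like that of B4GALT6 were NSF (Pearson r = 0.986), PGBD5 (0.973), MAK (0.972), ARHGEF3 (0.970) and SYTL4 (0.970). NSF encodes the ATPase that takes apart membrane fusion complexes, and had a log2 fold change of 0.36. The 6 points share their libraries and scaling, and they fall into a mimic and a control cluster for B4GALT6, so these values describe likeness only. Between B4GALT6 and B4GALT5 the same measure was 0.06.

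The dates in the labels were not used to choose the genes. In the fit with mimic and date as terms, 0 of the 9 genes differed between dates (edgeR, adjusted p from 0.400 for ST3GAL5 to 0.993 for B4GALT4), and 0 had an unadjusted p under 0.05, beside 0.308% of all tested genes called and 13.2% at an unadjusted p under 0.05. DESeq2 and limma-voom also called 0 of the 9, beside 164 and 41 of all tested genes. On 18 September ST3GAL5 stood 0.38 (SE 0.14) above the mean of the other dates on the log2 scale, B4GALT2 0.29 (SE 0.13) and B4GALT3 0.25 (SE 0.11). On that date B4GALT1 was at −0.25 (SE 0.12), B4GALT5 at −0.23 (SE 0.13) and UGCG at −0.22 (SE 0.11). B4GALT6 was at 0.01 (SE 0.11), and no value passed.

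The date call depended on the libraries of 22 August. Each fit without 1 or both of them left 1 residual degree of freedom, compared to 2 in the main date fit, so its p-values are less secure. With both of them left out (an alternative added once values had been seen), 4 of 9 genes differed between 18 and 5 September, beside 19.3% of all genes. UGCG (−0.33, adjusted p = 0.0281) and B4GALT5 (−0.30, adjusted p = 0.0391) were lower on 18 September, and B4GALT2 (0.32, adjusted p = 0.0287) and B4GALT3 (0.31, adjusted p = 0.0436) were higher. Without the control library of 22 August alone, 4 of 9 were called (B4GALT1, B4GALT2, B4GALT5 and ST3GAL5) beside 25.5% of all genes. Without the mimic library of that date 1 was called (B4GALT2), beside 16.8%. B4GALT6 was called in none of these, with adjusted p of 0.693, 0.510 and 0.783 in the order given.

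The neighbouring steps of the pathway were read from 6 lists written from general knowledge. The lists were chosen with earlier results of these libraries known, so their counts and shares are a description only. Of 122 genes 114 were tested, and 0 were called by the main edgeR fit. In that fit 6 had an unadjusted p under 0.05 (1 higher and 5 lower). That level was reached by 1.74% of all tested genes as higher and 1.26% as lower. Of the enzymes that build complex glycosphingolipids, 17 of 20 were tested, with a median log2 fold change of 0.03 (10 above 0 and 7 below). The sialyltransferases ST3GAL1 (0.38, SE 0.23) and ST6GALNAC4 (−0.38, SE 0.23) and the fucosyltransferase FUT1 (−0.22) had the lowest p. The abundant ST3GAL2 and B3GNT5, which starts the lacto series from lactosylceramide, had −0.12 and 0.10. The median of this list was −0.12 without the control library of 22 August.

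Of the genes of ceramide supply and sphingomyelin synthesis, 23 of 24 were tested, with 18 below 0 and a median of −0.06. DEGS1, the desaturase that makes ceramide, had 246 ± 37.2 CPM under the mimic and 312 ± 38.4 CPM under the control (SD, n = 3 each), and its log2 fold change was −0.34 (SE 0.16). ORMDL1, which restrains serine palmitoyltransferase, had −0.19. SPTSSB, a small subunit of that enzyme, had −1.03 (SE 0.59) at under 1 CPM. CERK, the ceramide kinase, had −0.04.

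Glycosphingolipid degradation was the list with most low p-values, none of them past the threshold in the main edgeR fit. Of 22 genes 19 were tested, with a median of −0.16 (14 below 0 and 5 above), and 5 had an unadjusted p under 0.05, 4 lower and 1 higher, beside 1.26% of all tested genes lower and 1.74% higher. Since this list too was chosen with earlier results known, nothing is read from these shares. Leaving out the mimic library of 22 August moved the median of the list to −0.26. NEU1, which removes sialic acid in lysosomes, stood at 75.5 ± 4.03 CPM under the mimic and 122 ± 4.25 CPM under the control. Its log2 fold change was −0.69 (SE 0.13). SUMF1, which activates sulfatases, had −0.39 (SE 0.15) and the acid ceramidase ASAH1 had −0.35, whereas the Golgi ceramidase ACER2 had 0.47. ASAH1 and ACER2 were singled out after their values were seen. PSAP, the precursor of the saposins, was the most abundant at 436 ± 51.5 and 488 ± 68.8 CPM (log2 fold change −0.16). DESeq2 called 2 genes of all 6 lists, NEU1 among them, beside 0.0123% of all tested genes higher and 0.0185% lower. The main edgeR fit and limma-voom called 0 genes of the lists. With no filter on low counts edgeR called 2, as did DESeq2 with the date as a block.

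N-glycan processing genes had a median of 0.02 (12 of 20 above 0). The mannosidase MAN1C1 had 0.37 (SE 0.18), the branching enzymes MGAT4A and MGAT4B had 0.17 and −0.10, MGAT1, which starts the branches that B4GALT1 extends, had −0.15, and B3GNT2, the partner of the galactosyltransferases in poly-N-acetyllactosamine, had −0.18. Proteoglycan linker genes also had a median of 0.02 (10 of 15 above 0). XYLT1, which starts the linker, had 0.54 (SE 0.46) at about 0.5 CPM, EXTL2 −0.24, EXT2 −0.15 and CHSY1 0.00. Genes of UDP-galactose supply and Golgi support had a median of −0.11 (14 of 20 below 0), with the mutarotase GALM at −0.32 (SE 0.14), UGP2, which makes UDP-glucose, at −0.24, UGDH at −0.21 and GOLPH3 at −0.08. In each of these 3 lists 0 genes were called, and 1 (GALM) had an unadjusted p under 0.05.

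**Figure D5:**
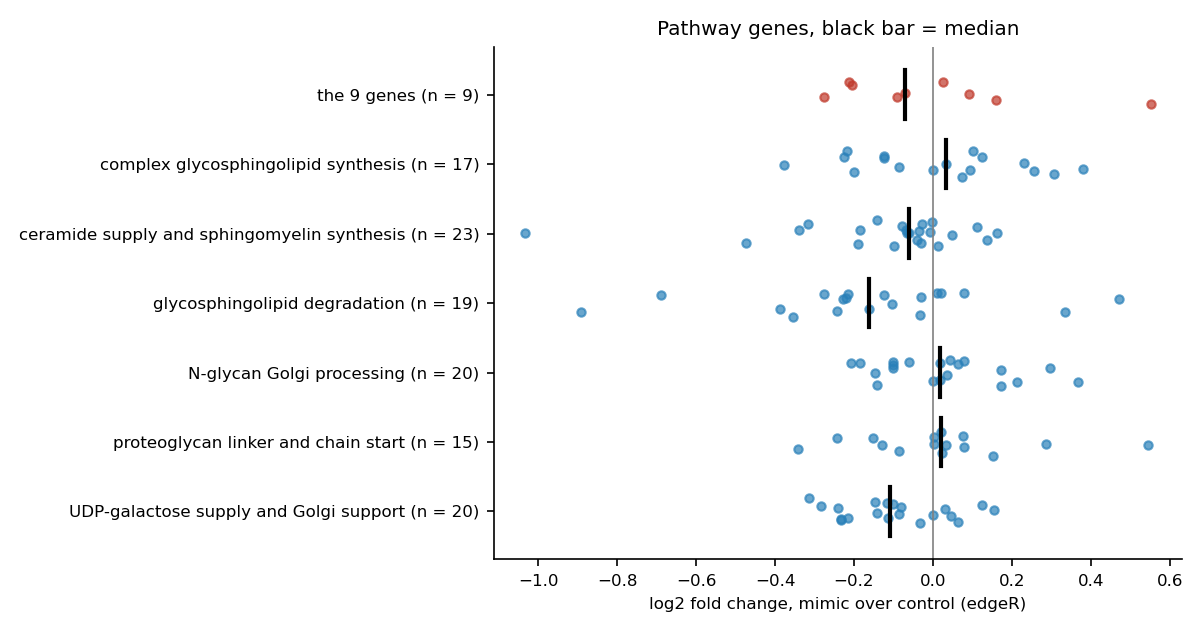
Fitted log2 fold change, mimic over control, of each tested gene of the 9 and of the 6 neighbouring lists, with the median as a black bar. Medians run from −0.16 (glycosphingolipid degradation) to 0.03 (complex glycosphingolipids), and B4GALT6 at 0.55 is the rightmost of the 9 genes.

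Libraries held 20233819 to 34408699 counts. Transcripts of AGO2 took 10.6 to 18.0% of them. Mitochondrially encoded transcripts took 13.3, 6.25 and 7.27% by date under the mimic, compared to 8.39, 5.66 and 6.48% under the control, with the mimic library of 22 August the highest. With AGO2 and the mitochondrial genes left out before scaling, B4GALT6 was at 0.56 on the log2 scale and 0 of the 9 genes were called. The 8 HEK293 markers had reads in all libraries and summed to 1528 to 1821 CPM under the mimic and 1487 to 1919 CPM under the control. They ran from PAX2 (2.61 to 6.98 CPM) and NES (3.80 to 7.90 CPM) up to KRT8 (513 to 718 CPM) and VIM (632 to 918 CPM). Of 19 markers of other cell types 18 were matched, and 5 of these had reads in all libraries, while PTPRC and HBD had at most 1 read. The highest of these 5 were MBP (37.4 to 51.3 CPM) and COL1A1 (14.2 to 23.7 CPM). Markers of gut epithelium and plasma cells differed between libraries and followed neither mimic nor date. IGHA1 had 0, 5.15 and 6.25 CPM under the mimic and 16.8, 0 and 12.2 CPM under the control by date, PIGR reached 11.0 CPM in the control library of 22 August, and FABP1 and MUC2 had at most 85 and 34 reads. All 18 summed to 72.0 to 76.0 CPM under the mimic and 77.0 to 766 CPM under the control, the last in the library of 5 September with 690 CPM of HBB. B4GALT6 had a log2 fold change of 0.50 to 0.59 with any 1 library left out. Whether the RNA behind these markers bears on its level was not tested.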

How the data were processed

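The authors deposited 1 table of raw counts per gene for 6 libraries, with gene lengths and hg19 positions. Per the submitters' processing notes, STAR 2.5, HTSeq 0.6.1 and DESeq2 were used with hg19. Columns were matched to samples by name and date, with 0 left over.

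From these counts, edgeR 4.0.16 (R 4.3.3) gave the main quasi-likelihood test with TMM, filterByExpr (min.count 10, min.total.count 15), no block and a Benjamini-Hochberg threshold of 0.05 over all tested genes. Dates were tested with mimic as a term, on 2 residual degrees of freedom with all 6 libraries and fewer with libraries left out. CPM and RPKM used TMM-scaled library sizes, and ratios per date a prior count of 2. Standard errors were obtained by dividing the fitted log2 value by the root of its F statistic. DESeq2 1.42.0, limma 3.58.1 (limma-voom), other filters and scaling and left-out libraries were alternatives.

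The labels give a shared date, so libraries were paired in the block. Deviations of libraries of 1 date correlated at 0.0466, 0.154 and 0.513, where the highest correlation with a library of another date was 0.243, 0.243 and −0.0637. No 2 libraries agreed within sampling noise. In simulated data 62% of 2-fold and 12% of 1.5-fold changes (100 of each) were recovered among 16233 genes, with 7 false calls.

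The members and lists were chosen with earlier results of these data known. Named genes were all 9, the 3 lowest p and 2 highest CPM of each list, and the 5 genes most like B4GALT6. One gene so picked is not reported here.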

Additional observations from a re-analysis of the deposited data

How the results depend on the processing

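In all alternatives run, B4GALT6 stayed at a log2 fold change of 0.50 to 0.59 and 0 of the 9 genes were called with the mimic, and where it was recomputed its difference from its paralogs was 0.59 to 0.67. With the replicate block B4GALT6 was 0.55 in edgeR (adjusted p = 0.824) and 0.55 in DESeq2 (adjusted p = 0.384), and no call among the 9 changed. With 1 library left out, B4GALT2 ran from −0.18 to 0.030, B4GALT5 from −0.043 to 0.16, B4GALT7 from −0.15 to 0.0054 and UGCG from −0.022 to 0.17, so each of these changed sign. ST3GAL5 ran from −0.35 (without the mimic library of 18 September) to −0.076 (without the control library of that date), B4GALT1 from 0.055 (without the mimic library of 22 August) to 0.26 (without that of 18 September), B4GALT3 from −0.30 (without the mimic library of 18 September) to −0.099 (without that of 5 September), and B4GALT4 from −0.36 to −0.19. Over all alternatives, list medians ran from −0.26 to −0.13 for degradation, −0.086 to −0.0091 for ceramide supply and −0.17 to −0.036 for UDP-galactose supply. They ran from −0.12 to 0.10 for complex glycosphingolipids, −0.065 to 0.045 for N-glycan processing and −0.10 to 0.048 for the proteoglycan linker. All genes called with the mimic went from 0 to 5 with DESeq2, 11 with DESeq2 and the replicate block, and 20 when the filter on low counts was dropped, while pathway genes called went from 0 to 2 in each of these 3. Genes called between dates went from 50 to 164 with DESeq2, 576 with no filter and 3115 without both libraries of 22 August, and ranged from 55 to 4239 with 1 library left out (highest without the control library of 22 August, then 2783 without the mimic library of that date, 773 without the mimic and 482 without the control library of 5 September). Members called between dates went from 0 to 4 without both libraries of 22 August, and ranged from 0 to 4 with 1 library left out. The cause of these shifts was not tested, beyond the fewer libraries or more genes tested. Each of the 9 genes had 337 or more reads in every library.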
